A study of Mus musculus with 6 samples.

Results

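The genes described here are the 9 members of the interleukin 1 (IL-1) family and its receptors that were listed by name and found among the 28836 genes of the expression table. They comprise the cytokine genes Il1a, Il1b and Il18, the receptor antagonist gene Il1rn, the receptor genes Il1r1, Il1rap and Sigirr, and the decoy genes Il1r2 and Il18bp. RNA was sequenced from 3 libraries of GB2-treated and 3 libraries of untreated RAW264.7 cells, a mouse cell line with macrophage features derived from a virus-induced leukaemia. GB2 is a prodrug in which MSA-2, which activates STING (an adaptor of innate immunity), is joined by a glutathione-cleavable disulfide to artesunate, with which the study aimed to inhibit the macrophage receptor TREM2. The labels give no genotype change for either group, and they give neither the dose of GB2 nor the time of exposure. The study states both for the transwell culture described next. The study describes its sequenced macrophages as the lower chamber of a transwell culture shared with tumour cells, but no tumour cells appear in the labels, and it is not stated outright that untreated cells were kept in the same way. The study calls its replicates biological, while the labels do not say how these libraries were cultured, and the p-values given here measure the spread between them.

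As background, IL-1 alpha and IL-1 beta bind the type 1 IL-1 receptor, which then recruits the accessory protein IL-1RAcP and signals through the adaptor MyD88, IRAK kinases and TRAF6 to NF-kappaB and MAP kinases. The pathway is held in check by a receptor antagonist that occupies the receptor without recruiting the accessory protein, by decoy receptors that bind cytokine without signalling, and by inhibitory receptors. Activated macrophages are a main source of IL-1 beta and IL-18, both of which are made as inactive precursors that caspase-1 cleaves within inflammasomes. Transcript levels therefore do not measure the mature cytokines, and no protein was measured in these data.

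The bases just upstream of the first transcribed base are printed for the 3 genes with the firmest differences (Il1a, Il1b and Il1rn) and, for contrast, for Il18, the cytokine gene that was not called. The sequences are those of RefSeq on GRCm38.p6, each 250 bases long and read 5′ to 3′ on the strand of the gene. Il1a lies at chr2:129309973-129310222 on the minus strand, Il1b at chr2:129371140-129371389 on the minus strand, Il1rn at chr2:24336610-24336859 on the plus strand and Il18 at chr9:50554450-50554699 on the plus strand. Capitals mark matches, on either strand, to one of the motifs searched. These were the TATA box written as TATAAA, the kappaB motif written as GGGANNNNCC, the AP-1 motif written as TGANTCA and the core of the hypoxia response element written as ACGTG.
Il1a: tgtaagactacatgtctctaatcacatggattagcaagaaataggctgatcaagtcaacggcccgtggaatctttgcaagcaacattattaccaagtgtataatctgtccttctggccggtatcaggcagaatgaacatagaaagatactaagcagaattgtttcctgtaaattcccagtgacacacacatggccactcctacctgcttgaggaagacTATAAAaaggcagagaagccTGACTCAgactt
Il1b: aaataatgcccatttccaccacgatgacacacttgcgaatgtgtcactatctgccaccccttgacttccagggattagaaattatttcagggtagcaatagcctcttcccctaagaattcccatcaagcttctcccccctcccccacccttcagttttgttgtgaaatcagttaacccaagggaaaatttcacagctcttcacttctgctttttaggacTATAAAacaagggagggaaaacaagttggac
Il1rn: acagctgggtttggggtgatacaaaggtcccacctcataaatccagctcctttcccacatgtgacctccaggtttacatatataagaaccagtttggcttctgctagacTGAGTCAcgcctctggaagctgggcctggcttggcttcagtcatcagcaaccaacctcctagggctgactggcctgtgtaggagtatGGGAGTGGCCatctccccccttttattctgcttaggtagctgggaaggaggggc
Il18: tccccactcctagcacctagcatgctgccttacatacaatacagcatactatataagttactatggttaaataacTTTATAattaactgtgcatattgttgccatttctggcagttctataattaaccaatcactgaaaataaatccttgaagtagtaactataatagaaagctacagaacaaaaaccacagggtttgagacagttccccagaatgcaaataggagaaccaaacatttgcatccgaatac

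The promoters of Il1a and Il1b share a TATA box at nearly the same place. TATAAA began 32 bases upstream of the first transcribed base in Il1a and 31 bases upstream in Il1b, whereas the only match in Il18 was TTTATA, the motif on the opposite strand, 175 bases upstream. In Il1a a TGACTCA also began 12 bases upstream. The Il1rn window had no TATA box match but held TGAGTCA 141 bases and GGGAGTGGCC 54 bases upstream. None of these 4 windows held ACGTG on either strand. In the windows not printed, ACGTG was matched on either strand for Il1r1, Il1r2 and Il1rap, and the kappaB motif for Il1rap, which was not called. The window of Il18bp, a called gene, held no match to any of the motifs. Over 32851 windows of the same length, 12.4% held the TATA box motif, 17.6% the kappaB motif, 6.75% the AP-1 motif and 16.6% the hypoxia response core. These matches are descriptions of letters only, because no factor binding was measured. Il1rn has further start sites downstream, and the deposited values per gene do not separate the transcripts that begin there. For Il18 the RefSeq start used here, 50554700, lies outside the deposited bounds of the gene, which begin at 50554827. The annotation lists 3 coding start sites for Il18, so the position of its match holds for the RefSeq start only.

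Values per library are listed in the order of replicates 1, 2 and 3 throughout. Library totals were 62660734 to 77337345 estimated counts. All 10 macrophage markers searched for were present in the table, and the lysozyme gene Lyz2, the most abundant of them, was at 7062, 6070 and 6526 FPKM in GB2-treated cells, against 13344, 12760 and 13279 FPKM in untreated cells. Here FPKM denotes the deposited level, in fragments scaled to a length per gene and to the library total. For most of the genes described here, counts and FPKM imply a length near the exonic bases of all transcripts. It is not that of the longest coding transcript, and comparisons of FPKM between genes depend on it. Of this list Csf1r (log2 change -1.42) and Cd68 (-1.12) fell and Mertk (1.71) was called higher, the last with 0.11, 0.44 and 0.44 FPKM in GB2-treated cells, against 0.13, 0.09 and 0.09 FPKM in untreated cells. GB2-treated replicates 2 and 3 stood apart from the other libraries. The summed level of 8 hepatocyte markers was 3.75, 527.47 and 508.79 FPKM in GB2-treated cells, against 0.53, 0.58 and 0.67 FPKM in untreated cells. Alb, Apoa1, Ahsg and Cyp3a11 of this list were at 0 FPKM in GB2-treated replicate 1 and in every untreated library. Markers of muscle and epithelium were also high in GB2-treated replicates 2 and 3 only. Levels or counts of the 9 genes of the family are therefore given per library. The fit with GB2-treated replicate 1 as the only treated library is cited for some results. Several other genes are given only as log2 changes, group means or distances over all libraries. In such bulk samples, fewer cells of a type and less RNA per cell cannot be told apart.

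Of the 9 genes, 8 passed the expression filter and were tested with edgeR's quasi-likelihood test, and 5 were called higher in GB2-treated cells (Il1a, Il1b, Il1rn, Il1r1 and Il18bp) while 0 were called lower. A gene was called at a false discovery rate (FDR, the p-value after Benjamini-Hochberg adjustment over all tested genes) below 0.05 with an absolute log2 change of at least 1. Over all 17124 tested genes, 13.4% were called higher and 7.73% lower. Without adjustment, 5 of the genes were higher and 1 (Sigirr) was lower at p under 0.05, as were 29.8% and 31.5% of all tested genes. The DESeq2 Wald test likewise called 5 higher and 0 lower, where it called 14.8% and 7.17% of all tested genes. FPKM values of the groups did not overlap for 4 genes that were higher and 1 that was lower, compared with 27.4% and 34.5% of all tested genes. The median log2 change of the 8 tested genes was 1.61, against 0.01 over all tested genes. Il1b showed the highest log2 change among them, followed by Il1a. Il1r1 was also called, but on low counts that varied widely between GB2-treated libraries.

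**Figure D1:**
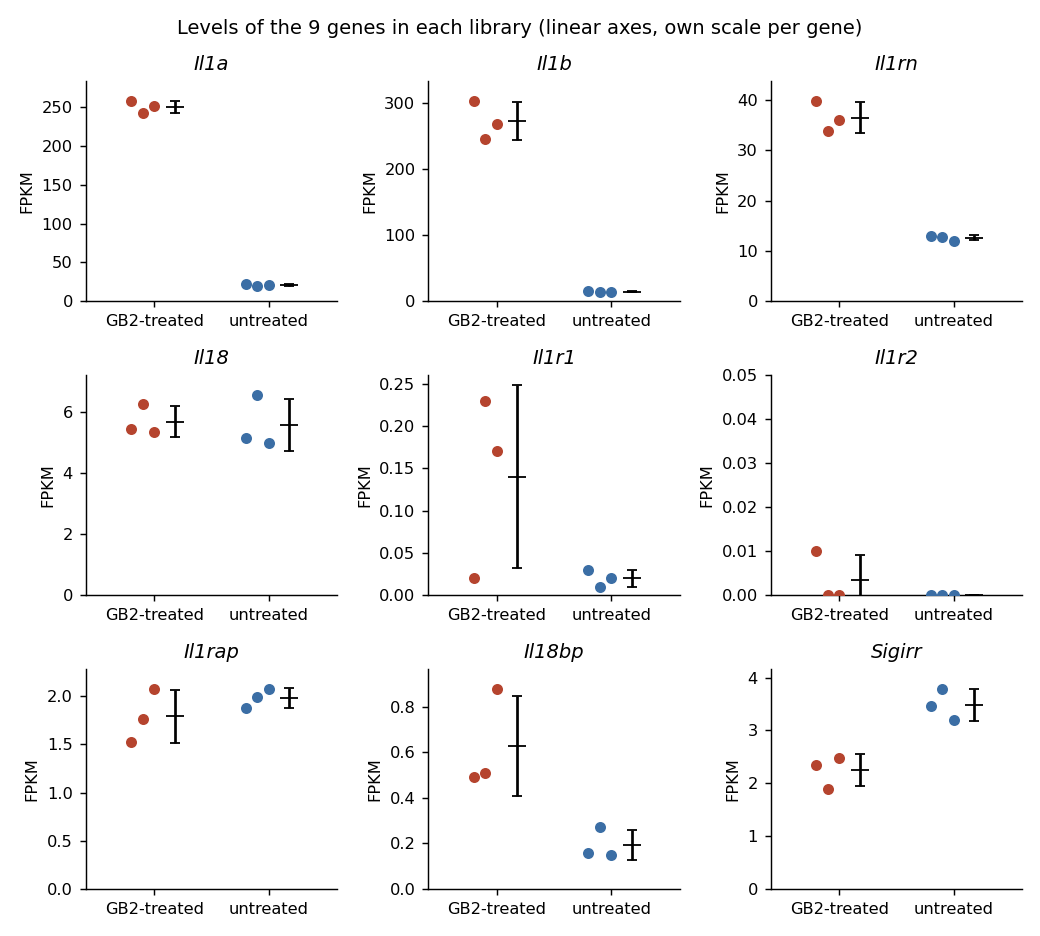
FPKM of each of the 9 genes in every library, on linear axes with their own scale; points are libraries (replicates 1 to 3 from left to right), and the bar beside them is the mean ± SD (n = 3 each), cut at 0 where it would fall below. The GB2-treated libraries lie above all untreated ones for Il1a, Il1b, Il1rn and Il18bp and below them for Sigirr, and for Il1r1 only GB2-treated replicates 2 and 3 are raised.

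The genes of both IL-1 agonists rose strongly in GB2-treated cells. Il1b (ENSMUSG00000027398, chromosome 2, 129364570 to 129371139, minus strand, 7 exons in its longest coding transcript) encodes IL-1 beta, the secreted agonist that is released after cleavage of its precursor. Its level was 302.48, 245.51 and 267.34 FPKM in GB2-treated cells, against 15.33, 14.74 and 13.98 FPKM in untreated cells. All GB2-treated libraries were high and no value came near those of the untreated libraries. The means were 271.8 ± 28.7 FPKM in GB2-treated cells and 14.7 ± 0.677 FPKM in untreated cells (SD, n = 3 each), an 18.7-fold difference with a log2 change of 4.23 ± 0.09 (SE, edgeR FDR = 6.91e-08) and a 95% interval of 4.02 to 4.43. By mean FPKM, Il1b ranked 184 of the 28836 genes in GB2-treated cells and 3107 in untreated cells. Of 8 markers of neutrophils, another source of IL-1 beta, 6 were in the table, with sums of 3.11, 2.25 and 2.52 FPKM in GB2-treated cells, against 1.21, 1.63 and 1.26 FPKM in untreated cells. S100a8 made up most of these sums, whereas S100a9, Ngp, Ltf and Mpo were at 0.09 FPKM or less in every library, and the part of such cells in the Il1b levels was not tested. The depth behind the Il1b values was 31275 to 43725 counts per GB2-treated library and 2175 to 2282 counts per untreated library.

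Il1a (ENSMUSG00000027399, chromosome 2, 129299610 to 129309972, minus strand, 7 exons) encodes IL-1 alpha, an agonist of the same receptor that is active already as a precursor and acts as an alarm signal of damaged cells. The gene is the neighbour of Il1b, with 54597 bases between their annotated bounds. Il1a was at 257.94, 242.07 and 251.05 FPKM in GB2-treated cells, against 22.62, 19.87 and 20.65 FPKM in untreated cells. Replicates lay close together within each group, and the groups were far apart. The means were 250.4 ± 7.96 FPKM in GB2-treated cells and 21.0 ± 1.42 FPKM in untreated cells (SD, n = 3 each), a 12.0-fold difference with a log2 change of 3.59 ± 0.06 (SE, edgeR FDR = 3.75e-08). In rank of mean FPKM, Il1a stood 198 in GB2-treated cells and 2169 in untreated cells.

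Both calls held in all 15 alternative fits, with log2 changes of 4.11 to 4.45 for Il1b and 3.51 to 3.70 for Il1a. With GB2-treated replicate 1 as the only treated library, in which the hepatocyte markers summed to 3.75 FPKM, the log2 changes were 4.45 (edgeR FDR = 9.27e-09) for Il1b and 3.70 (edgeR FDR = 3.54e-08) for Il1a. Transcripts annotated on the opposite strand overlap both genes. Gm14023 shares 11.2% of the exonic bases of Il1a and was at 1.45, 1.02 and 1.32 FPKM in GB2-treated cells, against 0.27, 0.31 and 0.31 FPKM in untreated cells. Il1bos shares 1.31% of those of Il1b and was at 0.37, 0.23 and 0.19 FPKM in GB2-treated cells, against 0.02, 0.01 and 0.02 FPKM in untreated cells. Levels of these partners were far below those of Il1a and Il1b, and since the strand setting of the counting is not given in the sources used here, reads of each partner and its gene may be mixed to that extent.

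The balance between the agonist genes also differed. The ratio of Il1a to Il1b, computed from FPKM within a library, was 0.853, 0.986 and 0.939 in GB2-treated cells, against 1.48, 1.35 and 1.48 in untreated cells. In FPKM, Il1a was thus the lower of the pair in every GB2-treated library and the higher in every untreated library. Which of the pair is higher depends on the length used for each gene. In counts, Il1a was above Il1b in GB2-treated replicate 2 (31919 against 31275). Mean ratios were 0.926 ± 0.0676 in GB2-treated cells and 1.43 ± 0.0741 in untreated cells (SD, n = 3 each), a log2 difference of -0.63 with p = 0.1 in a two-sided exact permutation test. With 3 libraries against 3, 0.1 is the smallest p that this test can give.

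Il18 (ENSMUSG00000039217, chromosome 9, 50554827 to 50581840, plus strand, 6 exons) encodes IL-18, a cytokine of the same family that is also matured by caspase-1 and induces interferon gamma in lymphocytes. It was not called. Its level was 5.44, 6.27 and 5.34 FPKM in GB2-treated cells, against 5.17, 6.57 and 5.00 FPKM in untreated cells. The groups overlapped, and replicate 2 was the highest library in both. The log2 change was 0.045 ± 0.17 (SE, edgeR FDR = 0.836) with a 95% interval of -0.34 to 0.43, so that a difference of 2-fold in either direction lies outside the interval. In GB2-treated cells Il18 thus stood far below Il1a and Il1b in FPKM.

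Il1rn, the gene of the antagonist, rose as well but by less than the agonist genes. Il1rn (ENSMUSG00000026981, chromosome 2, 24336853 to 24351494, plus strand, 5 exons) encodes the IL-1 receptor antagonist, which competes with IL-1 alpha and IL-1 beta for the type 1 receptor. It was at 39.81, 33.78 and 36.03 FPKM in GB2-treated cells, against 12.99, 12.79 and 12.06 FPKM in untreated cells. Every GB2-treated library was higher than every untreated one. The means were 36.5 ± 3.05 FPKM in GB2-treated cells and 12.6 ± 0.490 FPKM in untreated cells (SD, n = 3 each), a 2.93-fold difference with a log2 change of 1.55 ± 0.07 (SE, edgeR FDR = 1.42e-06). The call held in all 15 alternative fits, with log2 changes of 1.46 to 1.74. Of the 6 annotated transcripts of Il1rn 4 are coding, among them secreted and intracellular forms of the antagonist, which these values per gene do not tell apart.

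The ratio of agonist to antagonist transcripts, taken as Il1b to Il1rn, was higher in GB2-treated cells. It was 7.60, 7.27 and 7.42 in GB2-treated cells, against 1.18, 1.15 and 1.16 in untreated cells. The ratio varied little among libraries of a group, and the groups were well separated. Means were 7.43 ± 0.165 in GB2-treated cells and 1.16 ± 0.0144 in untreated cells (SD, n = 3 each), a 6.38-fold difference with p = 0.1 in the two-sided exact permutation test. The size of the ratio within a group depends on the length used for each gene. In untreated cells Il1b had 2266, 2282 and 2175 counts and Il1rn had 5571, 5746 and 5448. With counts in place of FPKM, the log2 difference between groups was 2.67. Transcript ratios do not give the ratio of the secreted proteins.

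**Figure D2:**
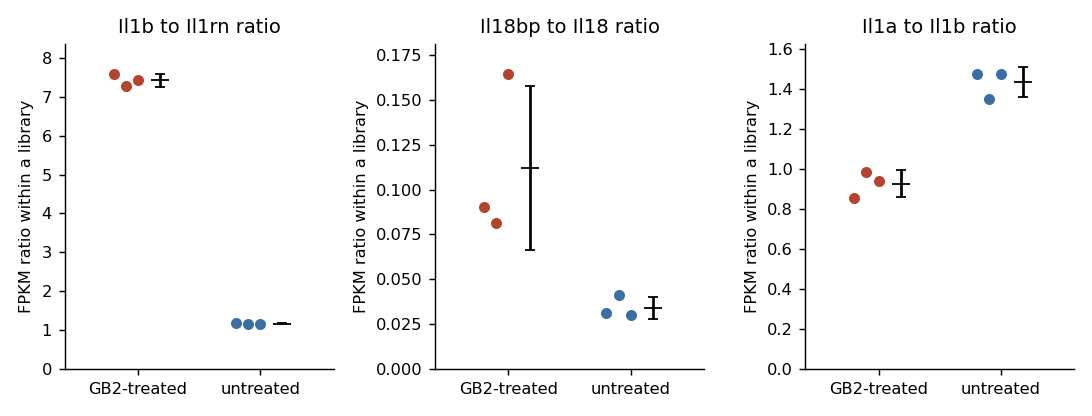
Ratios of FPKM within each library for Il1b to Il1rn, Il18bp to Il18 and Il1a to Il1b, on linear axes from 0; points are libraries, and the bar beside them is the mean ± SD (n = 3 each). Il1b to Il1rn lies near 7.43 in GB2-treated and near 1.16 in untreated libraries, and in no panel do the groups overlap.

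Il18bp, the gene of the soluble IL-18 binding protein, rose but stayed at a low level. Il18bp (ENSMUSG00000070427, chromosome 7, 102014885 to 102018197, minus strand, 4 exons) encodes a secreted decoy that neutralises IL-18. Its level was 0.49, 0.51 and 0.88 FPKM in GB2-treated cells, against 0.16, 0.27 and 0.15 FPKM in untreated cells. GB2-treated replicate 3 was the highest, and the lowest GB2-treated library was still above the highest untreated one. The counts behind these values were 114, 105 and 177 in GB2-treated cells, against 39, 68 and 39 in untreated cells. The log2 change was 1.67 ± 0.36 (SE, 3.18-fold, edgeR FDR = 0.00599) with a 95% interval of 0.82 to 2.52, and with GB2-treated replicate 1 as the only treated library it was 1.39 with an edgeR FDR of 0.0280. With limma on log2(FPKM + 1), a scale that understates the change of low genes, it was 0.44 and not called. Numa1, on the opposite strand, shares 2.64% of the exonic bases of Il18bp and lay far above it. It was at 15.50, 16.63 and 16.19 FPKM in GB2-treated cells, against 19.41, 18.84 and 18.65 FPKM in untreated cells. Reads of Numa1 may be mixed into the low counts of Il18bp, and their share was not tested.

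The ratio of Il18bp to Il18 was 0.0901, 0.0813 and 0.165 in GB2-treated cells, against 0.0309, 0.0411 and 0.0300 in untreated cells. GB2-treated replicate 3 was again the highest, and the groups did not overlap. The mean ratio was 0.112 ± 0.0459 in GB2-treated cells and 0.0340 ± 0.00615 in untreated cells (SD, n = 3 each), a 3.16-fold difference with p = 0.1 in the two-sided exact permutation test. In every library the binding protein gene remained below the cytokine gene in FPKM.

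Among receptors, Il1r1 (ENSMUSG00000026072, chromosome 1, 40225080 to 40317257, plus strand, 11 exons), which encodes the signalling receptor of IL-1 alpha and IL-1 beta, was near the limit of detection. It had 12, 98 and 74 counts in GB2-treated cells, against 17, 4 and 10 counts in untreated cells. In FPKM these were 0.02, 0.23 and 0.17 in GB2-treated cells, against 0.03, 0.01 and 0.02 in untreated cells. Only GB2-treated replicates 2 and 3 were raised, and GB2-treated replicate 1 lay within the untreated range. The log2 change was 2.82 ± 0.88 (SE, 7.05-fold, edgeR FDR = 0.0283) with a 95% interval of 0.75 to 4.88. The call was lost in 11 of 14 alternatives. It was lost without GB2-treated replicate 2 (edgeR FDR = 0.0896), without GB2-treated replicate 3 (edgeR FDR = 0.0712) and without untreated replicate 1, 2 or 3 (edgeR FDR = 0.0653, 0.118 and 0.121). With GB2-treated replicate 1 as the only treated library the log2 change of Il1r1 was 0.36 (edgeR FDR = 0.851), and with the replicate number as a block it was 2.59 (edgeR FDR = 0.128).

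Markers of several other cell types were high in the libraries in which Il1r1 was high. The summed level of 6 endothelial markers was 1.15, 8.76 and 12.88 FPKM in GB2-treated cells, against 4.99, 5.24 and 4.89 FPKM in untreated cells. Within that list 4 genes were called higher (Pecam1, Cdh5, Kdr and Tek) and 1, Vwf, lower, and Vwf made up most of the untreated sum. For 8 fibroblast markers the sums were 1.00, 3.57 and 4.19 FPKM in GB2-treated cells, against 1.15, 1.54 and 1.16 FPKM in untreated cells, with 2 called higher (Dcn and Pdgfra) and 0 lower. For 9 epithelial markers the sums were 0.93, 54.15 and 60.48 FPKM in GB2-treated cells, against 1.09, 1.14 and 1.44 FPKM in untreated cells, with 6 called higher and 0 lower. For 5 kidney tubule markers they were 12.00, 25.42 and 21.55 FPKM in GB2-treated cells, against 12.62, 10.52 and 10.15 FPKM in untreated cells, with 2 called higher (Slc34a1 and Aqp2). The kidney tubule markers were thus the only set of these 4 with a sum above 10 FPKM in every library. Neuron markers went the other way, with sums of 0.40, 0.07 and 0.09 FPKM in GB2-treated cells, against 0.59, 0.73 and 0.75 FPKM in untreated cells. Lymphocyte markers were at 0.22, 0.36 and 1.75 FPKM in GB2-treated cells, against 0.16, 0.17 and 0.11 FPKM in untreated cells. Whether the Il1r1 counts come from other cells was not tested. Among 6749 genes averaging 5 FPKM or more, the profiles nearest to Il1r1 over the 6 libraries, by Euclidean distance of centred log2(FPKM + 0.1), were those of Atp1b1 (distance 0.252), Slc34a1 (0.390) and Klk1 (0.406). The added 0.1 exceeds the Il1r1 level in every untreated library and in GB2-treated replicate 1, and so flattens its profile. On log2(FPKM + 0.1) its log2 change was 0.88 with limma, against 2.82 with edgeR. This match therefore depends on the value added.

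**Figure D3:**
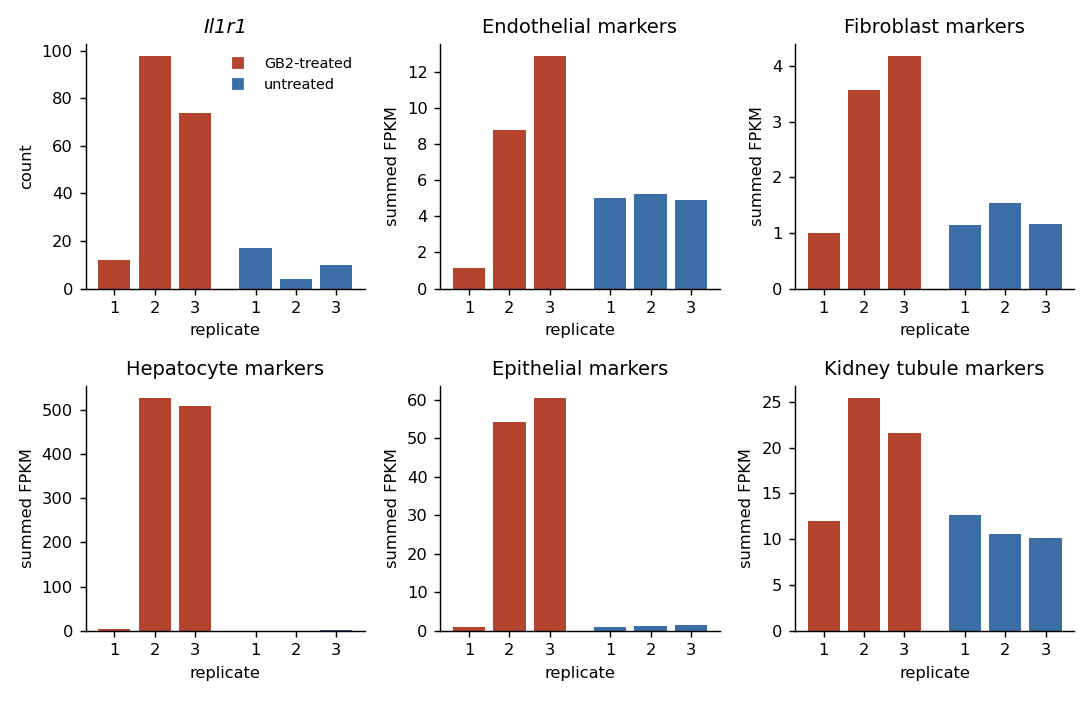
Counts of Il1r1 and summed FPKM of 5 marker lists of other cell types in each library, as bars from 0 on linear axes, with GB2-treated replicates 1 to 3 on the left and untreated replicates 1 to 3 on the right. Il1r1 (98 and 74 counts) and the hepatocyte sum (527.47 and 508.79 FPKM) are high in GB2-treated replicates 2 and 3, and GB2-treated replicate 1 has 12 counts of Il1r1 and a hepatocyte sum of 3.75 FPKM.

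Il1rap (ENSMUSG00000022514, chromosome 16, 26581704 to 26730117, plus strand, 11 exons), which encodes the accessory chain shared by the receptors of IL-1 and IL-33, was not called. It was at 1.53, 1.77 and 2.08 FPKM in GB2-treated cells, against 1.88, 1.99 and 2.08 FPKM in untreated cells. The groups overlapped, with GB2-treated replicate 1 the lowest library. The log2 change was -0.13 ± 0.11 (SE, edgeR FDR = 0.327) with a 95% interval of -0.38 to 0.12. Over 15 alternative fits it ran from -0.29 to -0.06, and the lowest value was that with GB2-treated replicate 1 as the only treated library. Il1rap thus exceeded Il1r1 in FPKM in every library. Gm20319, on the opposite strand, shares 4.86% of the exonic bases of Il1rap and was at 0, 0.43 and 0.31 FPKM in GB2-treated cells, against 0, 0.03 and 0 FPKM in untreated cells.

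Sigirr (ENSMUSG00000025494, chromosome 7, 141091175 to 141100572, minus strand, 10 exons) encodes an inhibitory receptor that dampens signalling by IL-1 and Toll-like receptors. Its level was 2.35, 1.9 and 2.48 FPKM in GB2-treated cells, against 3.47, 3.79 and 3.19 FPKM in untreated cells. Every GB2-treated library was below every untreated one. The means were 2.24 ± 0.304 FPKM in GB2-treated cells and 3.48 ± 0.300 FPKM in untreated cells (SD, n = 3 each), and the log2 change was -0.62 ± 0.13 (SE, edgeR FDR = 0.00544) with a 95% interval of -0.93 to -0.31. The FDR passed its threshold, as it did for 29.6% of all tested genes in this direction, but the change was below the fold threshold and Sigirr was not called. In 15 alternative fits the log2 change was -0.70 to -0.47.

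Il1r2 (ENSMUSG00000026073, chromosome 1, 40074079 to 40125231, plus strand, 9 exons), the gene of the decoy receptor that binds IL-1 without signalling, was hardly detected. It had 2, 0 and 0 counts in GB2-treated cells, against 0, 0 and 0 counts in untreated cells. At this depth a count of 0 allows up to 3 counts, or 0.0388 to 0.0479 CPM (counts relative to the library total) in the libraries concerned. This limit covers counting error only. It takes each count as a separate fragment, although low counts in these data favoured multiples of 4, so it may be too low. Il1r2 did not pass the expression filter and had too few counts for a fold change to be given, and its ratio to Il1r1 was not taken. Il1r2 and Il1r1 are neighbours on chromosome 1, with 99848 bases between them.

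In order of mean FPKM in GB2-treated cells, Il1b and Il1a came first, followed by Il1rn, Il18, Sigirr, Il1rap, Il18bp, Il1r1 and Il1r2. In untreated cells the order was Il1a, Il1b, Il1rn, Il18, Sigirr, Il1rap, Il18bp, Il1r1 and Il1r2. Neighbours whose libraries overlapped in GB2-treated cells were Il1b with Il1a and Sigirr with Il1rap, whereas in untreated cells no neighbours overlapped. In FPKM the cytokine and antagonist genes therefore lay above all receptor and decoy genes in both groups. The order depends on the length used for each gene. In counts, Il1rn was above Il1b in every untreated library, and Il1rap was above Il18 in every library.

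**Figure D4:**
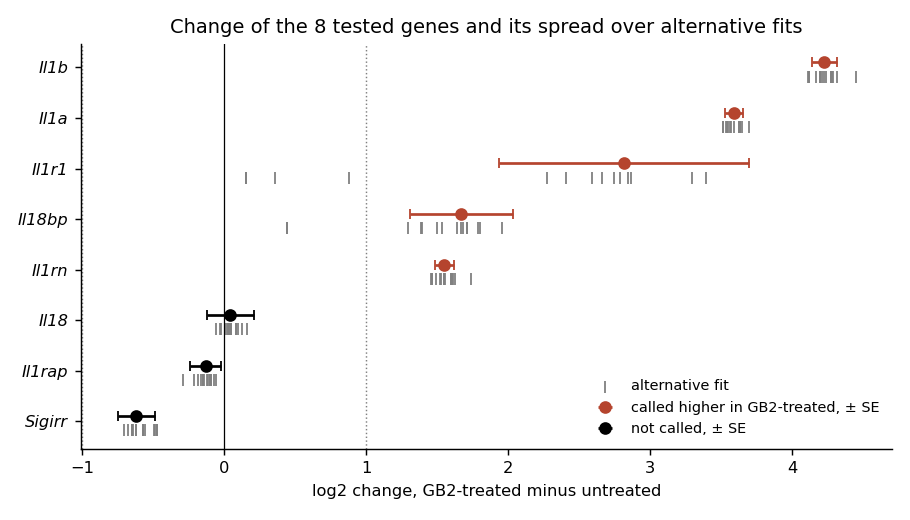
Log2 change (GB2-treated minus untreated) of the 8 tested genes, as points with SE bars, with each alternative fit as a grey tick beneath; dotted lines mark the fold threshold of 1 in either direction. Il1b (4.23), Il1a (3.59) and Il1rn (1.55) keep their values closely over the alternatives, while those of Il1r1 run from 0.16 to 3.39.

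The profiles nearest to the called genes over the 6 libraries, found in the same way as for Il1r1, are given as a description, since the points share libraries and group structure. Nearest to Il1a was Cxcl2, a neutrophil-attracting chemokine (distance 0.160), with mean levels of 1412 FPKM in GB2-treated cells and 115.5 FPKM in untreated cells, followed by Selenbp1 (0.180) and Gbe1 (0.209). Nearest to Il1b was Csf3, the granulocyte growth factor G-CSF (0.146), with 967.4 FPKM in GB2-treated cells and 56.0 FPKM in untreated cells, followed by Upp1 (0.296) and Cish (0.299). The profile of Il1rn lay closest to those of the glycolytic enzyme genes Ldha (0.0864) and Pgk1 (0.0927) and of Anxa2 (0.107). For Il18bp the nearest genes were farther away, with Slc35a2 at 0.581, Cp at 0.595 and Ppp1r13l at 0.597.

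Of 6 other ligand genes of the family, 3 were in the table and 2 were tested, with 1 called higher. This was Il33, the gene of an alarmin released from damaged barrier cells, at 0.13, 0.55 and 0.30 FPKM in GB2-treated cells, against 0.07, 0.14 and 0.07 FPKM in untreated cells. GB2-treated replicate 1 lay below the highest untreated library, and the log2 change was 1.82 ± 0.60 (SE, edgeR FDR = 0.0337). Il33 was not called in 11 of 15 alternatives, among them those without GB2-treated replicate 2 or 3 or any 1 untreated library and that with GB2-treated replicate 1 alone. Its receptor gene Il1rl1, encoding ST2, was the 1 called of 2 tested among 6 other receptor genes. Il1rl1 was at 3.26, 3.67 and 4.06 FPKM in GB2-treated cells, against 1.56, 1.77 and 1.87 FPKM in untreated cells. The groups did not overlap, and the log2 change was 1.09 ± 0.10 (SE, edgeR FDR = 7.08e-05), close to the fold threshold. That call was lost with limma on log2(FPKM + 1) and with GB2-treated replicate 1 as the only treated library. Il18rap, a chain of the IL-18 receptor, was not called (log2 change 0.95 ± 0.09), with 2.30, 2.50 and 2.70 FPKM in GB2-treated cells against 1.37, 1.33 and 1.23 FPKM in untreated cells. The ligand-binding chain Il18r1 was at or below 0.03 FPKM in every library and was not tested.

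Downstream of the receptor, 5 of 27 signalling genes rose, 2 fell and 20 were not called, with a median log2 change of 0.17 against 0.01 over all tested genes. As given above, 13.4% of all tested genes were called higher and 7.73% lower, so that these counts lie near the shares over all genes. Nfkbia, which encodes the NF-kappaB inhibitor I-kappaB alpha, was at 346.70, 313.55 and 337.23 FPKM in GB2-treated cells, against 87.99, 84.95 and 85.23 FPKM in untreated cells (log2 change 1.97 ± 0.05, edgeR FDR = 9.88e-08). Peli1, an E3 ubiquitin ligase acting on IRAK proteins, rose by a log2 change of 1.45 ± 0.08, and Tnfaip3, the ubiquitin-editing inhibitor A20, by 1.39 ± 0.06. The other genes that rose, named after their values were seen, were Irak3, the gene of an inhibitory member of the IRAK family (1.26 ± 0.04), and Traf6, the ubiquitin ligase of the pathway (1.07 ± 0.05). Tifa, an adaptor that binds TRAF proteins, fell (log2 change -1.34 ± 0.05), as did Mapk14, which encodes the kinase p38 alpha (-1.07 ± 0.05) and was named after its values were seen. The adaptor gene Myd88 was not called, at 14.57, 11.77 and 13.01 FPKM in GB2-treated cells against 25.27, 24.86 and 23.73 FPKM in untreated cells (log2 change -0.89 ± 0.08, edgeR FDR = 4.32e-05). In the fit with GB2-treated replicate 1 as the only treated library, 6 of the 27 genes were called higher and 1 lower, where 7.85% and 7.89% of all genes tested in that fit were.

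**Figure D5:**
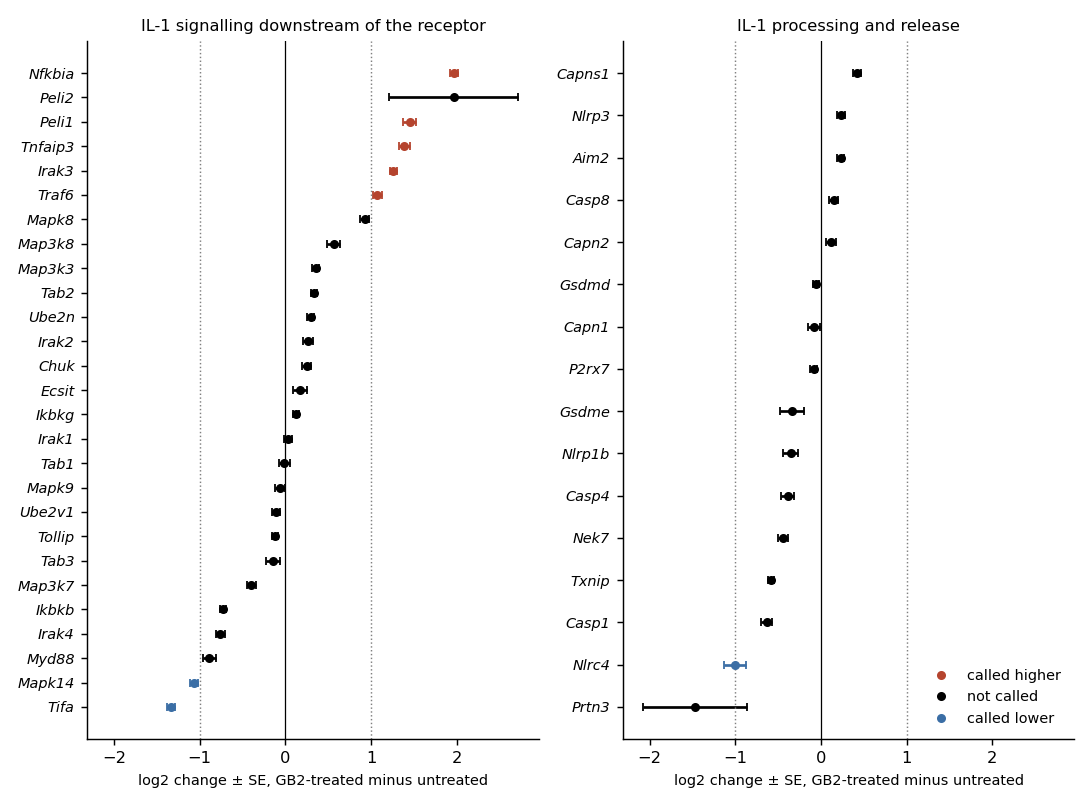
Log2 change ± SE (GB2-treated minus untreated) of the tested genes for signalling downstream of the receptor (27 genes, left) and for processing and release of IL-1 (16 genes, right); dotted lines mark the fold threshold of 1 in either direction, and colours show calls. Nfkbia, Peli1, Tnfaip3, Irak3 and Traf6 lie on the higher side and Mapk14 and Tifa on the lower side, and of the processing genes only Nlrc4 is called.

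No gene for the processing and release of IL-1 was called higher. Of 20 listed genes 16 were tested, of which 0 were called higher and 1 lower by edgeR, with a median log2 change of -0.21. Over all tested genes 13.4% were called higher and 7.73% lower. Without adjustment of p, 4 were higher and 8 lower under 0.05, where 29.8% and 31.5% of all tested genes were, and the DESeq2 Wald test called 0 in either direction. The gene called lower was Nlrc4, part of an inflammasome that responds to bacterial proteins. It was at 1.01, 1.27 and 1.28 FPKM in GB2-treated cells, against 2.44, 2.23 and 2.57 FPKM in untreated cells. Its log2 change of -1.003 ± 0.13 (SE, edgeR FDR = 0.000429) stood at the fold threshold, and the call was lost with DESeq2 size factors and without untreated replicate 3, among others. Casp1, the gene of the protease that cleaves pro-IL-1 beta, was at 11.79, 9.83 and 10.87 FPKM in GB2-treated cells, against 16.49, 17.16 and 17.45 FPKM in untreated cells (log2 change -0.64 ± 0.06, not called). Nlrp3, the sensor gene of the best studied inflammasome, was at 37.64, 35.09 and 35.62 FPKM in GB2-treated cells, against 30.91, 30.33 and 32.15 FPKM in untreated cells (log2 change 0.23 ± 0.04, not called). Pycard, the gene of the adaptor ASC that links sensor and caspase-1 and is known to be missing from RAW264.7 cells, was at 0.01, 0.40 and 0.22 FPKM in GB2-treated cells, against 0.03, 0 and 0 FPKM in untreated cells, and was not tested. The only values of Pycard above 0.03 FPKM were in the GB2-treated libraries that carried hepatocyte transcripts. Il18rap, Il18r1, Myd88, Casp1, Nlrp3 and Pycard were named after their values were seen.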

How the data were processed

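RNA from 3 GB2-treated and 3 untreated libraries was poly(A)-selected and made into strand-keeping (dUTP) paired-end libraries. From the processing notes of the submitters come the build mm10 and the tools StringTie 2.1.6, HISAT2 2.2.1, cutadapt 1.9, edgeR and DESeq2. How each was used, the annotation and how reads were counted are details not given in the sources used here. Values deposited by the authors were estimated counts per gene, already whole numbers, and FPKM values. Low counts favoured multiples of 4 (a count of 4 in 952 genes of untreated replicate 1, of 3 in 397 and of 5 in 252). The count test was the quasi-likelihood F test of edgeR 4.0.16 under R 4.3.3 (TMM scaling, filterByExpr, no covariate), at the FDR and fold thresholds of the study. The procedure was tested on counts simulated from the untreated libraries alone. That simulation does not cover the wider spread among GB2-treated libraries, with a chi-square per degree of freedom of 59.0 to 140.5, against 12.7 to 22.5 among untreated ones. The SE was taken as the log2 change over the root of F. Chi-square per degree of freedom between libraries was 12.7 to 673.1, so none was taken as a copy of another and each was kept. This check does not measure the quality of a library. Coordinates are those of the deposited table, and exons are from GENCODE M21 (GRCm38), where 8 of 9 genes had the same bounds. RefSeq promoters matched 8 of 9 genes. Il36a and Il36g were matched as Il1f6 and Il1f9. Alternatives used DESeq2 1.42.0, limma 3.58.1 on log2(FPKM + 1) or log2(FPKM + 0.1), no filter, a replicate block, libraries left out, and counts divided by 4. All genes of the family set were named; of each list, up to 4 called genes with the largest absolute log2 change were, or, if no gene was called, up to 2 of the highest mean FPKM, along with the 3 nearest profiles per called gene. Some genes that this rule picks from the marker lists are left out for brevity. The genes and lists were chosen with earlier results of these data known.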

Additional observations from a re-analysis of the deposited data

How the results depend on the processing

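The calls of Il1a, Il1b and Il1rn, and the lack of a call for Il18, Il1rap and Sigirr, held in all 15 alternative fits. With limma on log2(FPKM + 1), 3 of the 9 genes were called against 5 with edgeR, and 1222 genes in all against 3624, and without a filter on FPKM the counts were 3 and 1212. With limma on log2(FPKM + 0.1) they were 4 and 2884, and the cause of the remaining difference was not tested. Leaving out 1 library at a time gave 4 to 5 called genes of the family and 2705 to 5258 calls over all genes. The call of Il1r1 was also lost with no expression filter (edgeR FDR = 0.0639) and in the 3 limma fits, while it held with DESeq2 size factors, with the DESeq2 Wald test and without GB2-treated replicate 1; with counts divided by 4 it was not tested. The sign of Il18 turned without GB2-treated replicate 2 (log2 change -0.018), without untreated replicate 1 (-0.026) and without untreated replicate 3 (-0.054), each smaller in size than the SE of 0.17 over all libraries, and the fits without 1 library ran from -0.054 to 0.16. Calls over all genes were 63.5% higher with edgeR, against 49.5% with limma on log2(FPKM + 1) and 49.9% with GB2-treated replicate 1 alone, for which the lone library was assumed to vary like the untreated ones. With no expression filter the median log2 change of all genes was 0.18. The 3 log2 ratio differences kept their sign when counts replaced FPKM, when 0.1 was added and without each library in turn (2.66 to 2.69 for Il1b to Il1rn, 1.35 to 1.86 for Il18bp to Il18 and -0.68 to -0.57 for Il1a to Il1b without 1 library). With the replicate number as a block, 4 of the 9 genes and 3040 genes in all were called, and of the family only Il1r1 lost its call (edgeR FDR = 0.128). The labels give same-numbered libraries nothing in common beyond the number. The correlations of their deviations from the group means were 0.0213, 0.0492 and 0.0134, although every library correlated best with its own number. Transcripts of other tissues in GB2-treated replicates 2 and 3 also enter these deviations, so the values do not decide whether libraries were paired. Depth limited Il1r1, Il1r2 and Il18bp, with at most 177 counts in any library.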
